A study of Rattus norvegicus with 6 samples.

Results

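The nuclear receptors are a superfamily of transcription factors, many of which are switched by small fat-soluble ligands such as steroid and thyroid hormones, retinoic acid, oxysterols, fatty acids and heme. The 46 receptor genes described here were given as a list of gene symbols, without use of any measured value, and 46 of 46 were rows of the deposited expression files, among 22573 rows used in all. A mean of at least 1 FPKM (fragments per kilobase of transcript, scaled to the mapped fragments of the library) over the 6 libraries was reached by 24 receptors, which were tested, and not by 22. Of the 24, 6 rose and 7 fell under strain (limma, adjusted p under 0.05), a share of 54.2%, while 35.4% of all 10180 tested genes were called (16.4% higher and 19.0% lower). The count of 13 called receptors was 8 without control replicate 1 and also 8 without strain replicate 2. Over all tested genes, 3608 of 10180 were called in the reported fit. Without control replicate 1 it was 2363 of 10182, and without strain replicate 2 it was 2892 of 10168.

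RNA sequencing was done on nucleus pulposus cells of Sprague Dawley rats, which come from the gelatinous core of the intervertebral disc. The design text names the circadian clock as the question behind the comparison. The 3 libraries of the strain group came from cells under cyclic tensile strain, which a Flexcell tension device applied at 18% elongation and 0.2 Hz for 24 h. The 3 control libraries carry the class label control, yet the treatment text on them is that of the strain group, so they were taken as unstretched from that label alone. No label gave the age, sex or number of rats, the passage of the cells, a harvest time, a batch or the origin of replicates, so the p-values speak of variation among these libraries alone, and it may be technical.

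Most receptors of this family bind DNA through a zinc finger domain, usually at copies of the hexamer AGGTCA or, for most steroid receptors, a related hexamer. The ligand-binding domain exchanges corepressors for coactivators when an activating ligand is bound. Retinoid X receptors (RXR) are the shared partners with which receptors for thyroid hormone, retinoic acid, vitamin D, oxysterols and fatty acids pair, whereas steroid receptors pair with themselves. In the circadian clock, the REV-ERB receptors (Nr1d1 and Nr1d2) repress and the ROR receptors activate the same DNA elements. The glucocorticoid receptor (Nr3c1) restrains inflammatory gene expression in many tissues.

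The promoters of 4 receptors are shown because their genes were called in every alternative that tested them and lie in pairs in the rat genome. Thra neighbours Nr1d1 on chromosome 10 and Thrb lies near Nr1d2 on chromosome 15, and in each pair 1 receptor binds thyroid hormone and the other is a REV-ERB. Each sequence is the 250 bases before a RefSeq transcription start (build GRCr8), 5′ to 3′ on the strand of the gene. Capitals mark matches, on either strand, to the E-box CACGTG bound by the clock activators, the receptor hexamer AGGTCA, the D-box TTATGNAA, the cyclic AMP element TGACGTCA, or the GC box GGGCGG. The palindromic glucocorticoid response element was searched as well and had no match in these 4.
Nr1d1 (chr10:84229455-84229704, minus strand): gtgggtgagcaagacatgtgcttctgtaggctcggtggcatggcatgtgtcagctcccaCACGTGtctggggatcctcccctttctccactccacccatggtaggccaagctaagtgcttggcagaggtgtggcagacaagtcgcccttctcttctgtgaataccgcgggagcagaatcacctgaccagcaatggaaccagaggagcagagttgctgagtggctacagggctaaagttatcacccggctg
Nr1d2 (chr15:9954784-9955033, plus strand): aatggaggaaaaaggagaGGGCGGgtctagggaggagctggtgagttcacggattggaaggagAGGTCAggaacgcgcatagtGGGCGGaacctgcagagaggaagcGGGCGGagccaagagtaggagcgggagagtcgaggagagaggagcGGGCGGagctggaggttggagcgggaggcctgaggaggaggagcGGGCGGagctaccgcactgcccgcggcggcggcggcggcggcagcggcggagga
Thra (chr10:84197891-84198140, plus strand): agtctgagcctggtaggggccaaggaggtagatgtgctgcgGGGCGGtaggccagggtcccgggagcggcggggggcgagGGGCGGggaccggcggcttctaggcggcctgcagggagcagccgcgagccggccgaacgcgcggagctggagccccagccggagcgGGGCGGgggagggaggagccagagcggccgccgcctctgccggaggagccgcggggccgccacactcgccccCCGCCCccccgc
Thrb (chr15:10461447-10461696, minus strand): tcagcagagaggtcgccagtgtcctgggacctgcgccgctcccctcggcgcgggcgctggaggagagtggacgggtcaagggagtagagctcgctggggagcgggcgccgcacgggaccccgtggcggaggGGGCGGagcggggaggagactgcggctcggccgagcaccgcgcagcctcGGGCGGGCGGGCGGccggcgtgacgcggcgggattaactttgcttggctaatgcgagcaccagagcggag

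Nr1d1 has a second RefSeq start, whose window held none of these letters, while the window shown has 1 E-box that begins 191 bases before the start. Nr1d2 has 1 receptor hexamer, beginning 187 bases before the start, and 5 GC boxes. Thra and Thrb each have 4 GC boxes and none of the other motifs, and the matches in Thrb partly overlap. The 4 windows were 56.8%, 68.0%, 79.6% and 74.0% G or C in this order, against a median of 51.2% over 33469 RefSeq rat promoters of the same length.

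Promoter entries were found for 40 of the 46 receptors and for 11 of the 13 that changed. A GC box was present for 5 of 6 receptors that rose, 4 of 5 that fell and have an entry, 5 of 9 that were tested and not called, and 8 of 20 under the filter. It occurs in 30.5% of all 33469 promoter entries. A receptor was counted if any of its entries held the motif (49 entries for 40 receptors), whereas the shares over all promoters are per entry. The 2 are therefore not on the same footing. An E-box was found for Nr1d1 alone among the 11 (5.59% of all promoters), and AGGTCA for Rarg and Nr1d2 (14.1%). None of the 11 held a D-box (3.28%), a cyclic AMP element (1.59%) or the glucocorticoid element (0.012%). These matches describe the letters of the windows and do not show binding.

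The values are the authors' FPKM. They keep no read totals and whole reads could not be recovered from them, so the depth is unknown and no counting interval is given. Across genes, Pearson's r of the log2 values was 0.9952 to 0.996 for pairs of controls, 0.9931 to 0.9966 for pairs of strain libraries and 0.9712 to 0.9854 for pairs from different groups. Strain replicate 3 stood apart on the second principal component (17.5, against -9.70 and -10.8 in the other strain libraries) and was the strain library farthest from its group median for 13 of 24 tested receptors and 57.6% of all tested genes. Of 19 markers of notochordal and nucleus pulposus cells, 12 were tested, and the aggrecan gene Acan averaged 31.1 ± 10.6 FPKM (SD, n = 3) in controls. Krt8 (4.19 and 8.34 FPKM in the control and strain means), Foxf1 (7.94 and 12.7), Pax1 (3.47 and 10.3) and Cd24 (5.06 and 4.04) were expressed as well. Of the same list, Shh (listed at 0 in all libraries), T (0.0826 and 0.1003 FPKM), Krt18 (0.0845 and 0.0577) and Krt19 (0.0111 and 0.0464) were nearly absent, and the cartilage collagen Col2a1 had group means of 0.0423 FPKM (control) and 0.898 FPKM (strain). Of the 12, 9 rose and 1 fell under strain. Among all tested genes 16.4% were called higher and 19.0% lower, the shares to set beside this and the marker counts below. The sum of this marker list was 5010 to 5392 FPKM in controls and 11800 to 14070 FPKM under strain, most of it Mgp.

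Markers of leukocytes, fat, liver, vessel and red blood cells were mostly low, and those of annulus fibrosus and tendon were not. Of 10 macrophage and leukocyte markers 4 were tested, of which 1 rose and 2 fell, and the sum of the list was 17.6 to 24.1 FPKM in controls and 20.05 to 23.4 FPKM under strain. The 4 tested were Cd14 (14.5 and 15.8 FPKM in the control and strain means, not called), Lyz2, Adgre1 and Cd68. Lyz2 rose (0.249 and 3.30 FPKM), while Adgre1 (3.71 and 1.31) and Cd68 (1.525 and 0.633) fell. The pan-leukocyte gene Ptprc averaged 0.0046 and 0.0228 FPKM, and C1qa and C1qb were listed at 0. None of the adipocyte, hepatocyte, endothelial or red blood cell markers was tested (5, 5, 8 and 5 listed), with Adipoq and Alb listed at 0. The endothelial gene Flt1 missed the filter narrowly (mean of all libraries 0.955 FPKM). Its control values were 1.58, 1.16 and 1.54 FPKM, its strain values 0.497, 0.465 and 0.489. Limma without a filter called Flt1 lower (adjusted p = 0.0034). That fit also called the endothelial Pecam1 and Erg higher (adjusted p = 0.023 and 0.033) and the hepatocyte gene Apoa1 lower (0.037), all below 1 FPKM. Of 5 tested annulus fibrosus and tendon markers 4 rose under strain (sum of the list 1835 to 2320 FPKM in controls and 4729 to 5825 under strain). The part of these marker shifts in the receptor results was not tested, and in bulk RNA fewer cells of a type and less RNA per cell cannot be told apart.

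Levels of the 24 tested receptors covered a range from 31.6 FPKM for Esrra, an orphan receptor that drives mitochondrial genes, to 1.19 FPKM for the mineralocorticoid receptor Nr3c2 (means over 6 libraries). A mean of 10 FPKM or more was reached by 10 receptors: Esrra, Nr1h2, Nr2f6, Nr4a1, Thra, Rarg, Nr1d1, Nr3c1, Rxra and Ppard. Another 14 lay between 1 and 10 FPKM. The median over all 10180 tested genes was 8.03 FPKM, and 12 receptors were above it. Summed over the 46 receptors, the level was 253.7 ± 7.90 FPKM in controls and 251.5 ± 13.5 FPKM under strain. Just inside the filter were Nr3c2 and Nr2f1 (1.19 and 1.28 FPKM) and just outside it Nr6a1 and Vdr (0.731 and 0.670 FPKM).

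**Figure D1:**
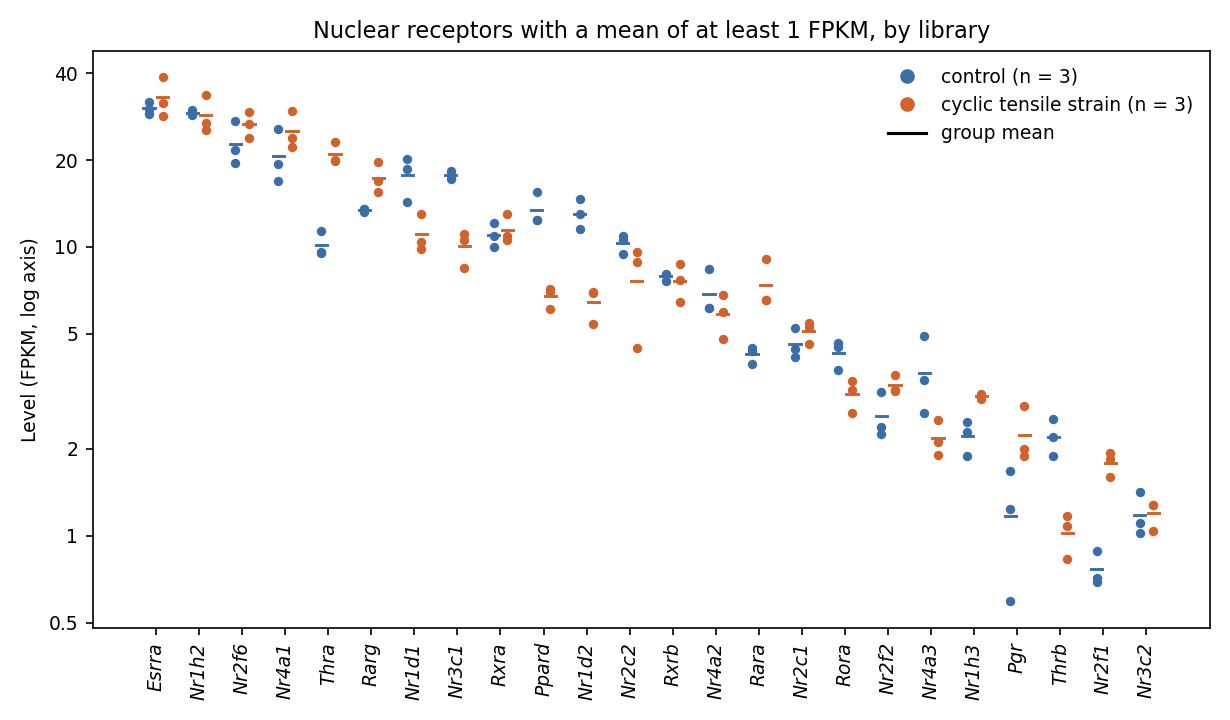
Level of each tested receptor in each library (FPKM, log axis), ordered by the mean over the 6 libraries; points are libraries and short lines group means (blue control, orange strain, n = 3 each). The groups are separate for Thra, Ppard, Nr1d2 and Nr3c1 and mixed for Esrra, Nr1h2 and Rxra.

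Strain was compared with control by limma on log2(FPKM + 1), fitted over all 10180 tested genes. Fold changes on this scale understate the change of low genes. The 3 control and 3 strain values did not overlap for 14 receptors (58.3%), against 51.9% of all tested genes. The median log2 fold change was 0.04 over the 24 receptors and -0.01 over all tested genes. The calls of Thra, Thrb, Rara, Ppard, Nr1d1, Nr1d2, Nr3c1 and Nr2f1 held in every alternative that tested them.

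**Figure D2:**
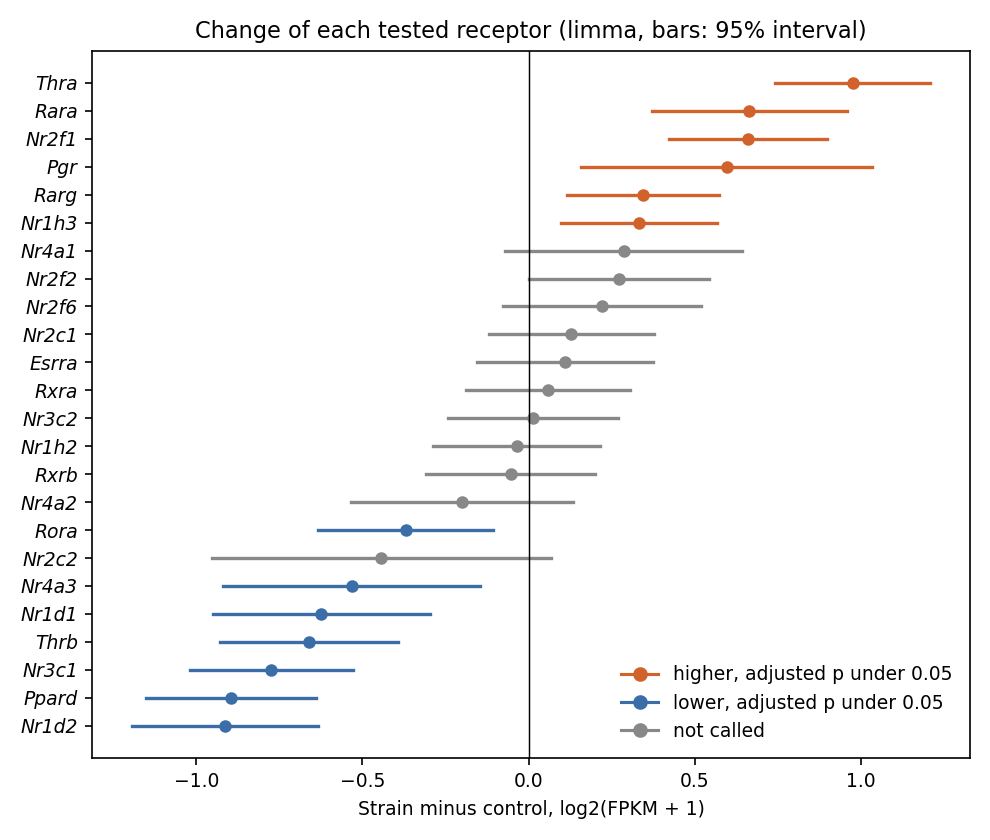
Difference between strain and control for each of the 24 tested receptors on the log2(FPKM + 1) scale, with 95% intervals from limma; orange was called higher, blue lower and grey not called. Thra lies at 0.98 at the top and Nr1d2 at -0.91 at the bottom.

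Thyroid hormone receptors changed in opposite directions. Thra, the alpha receptor, was at 9.55, 9.62 and 11.3 FPKM in controls and at 19.96, 19.9 and 23.0 FPKM under strain. All strain libraries lay above all controls, and the mean rose 2.06-fold (log2 fold change 0.98 ± 0.10 SE, limma adjusted p = 0.00020). Thrb, the beta receptor, was at 2.54, 2.197 and 1.88 FPKM in controls and at 1.17, 1.08 and 0.830 FPKM under strain. It fell 2.15-fold (-0.66 ± 0.12 SE, limma adjusted p = 0.0031), again without overlap. With a pseudocount of 0.1 its log2 fold change was -1.04. Thra thereby made up 79.0% to 85.8% of the summed Thra and Thrb level in controls and 94.5% to 96.5% under strain.

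Thra and Nr1d1 overlap at their 3′ ends on opposite strands in the rat annotation, and Thra also overlaps Med24. Whether the counting used strand is not given in the sources used here, so reads from the shared stretch cannot be told apart. Thra rose while Nr1d1 fell, and Med24, a Mediator subunit gene, fell from 14.6 ± 1.41 to 9.21 ± 0.82 FPKM (SD, n = 3; limma adjusted p = 0.0023).

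Retinoic acid receptors rose where they were expressed. Rara was at 4.37, 3.93 and 4.46 FPKM in controls and at 6.54, 6.58 and 9.08 FPKM under strain, where replicate 3 was the highest. Its mean rose 1.74-fold (log2 fold change 0.66 ± 0.13 SE, limma adjusted p = 0.0046). Rarg, the receptor of this group with the highest level here, was at 13.5, 13.5 and 13.2 FPKM in controls and at 15.5, 17.0 and 19.7 FPKM under strain. All strain values exceeded the controls, and the mean rose 1.30-fold (limma adjusted p = 0.027). That call was lost without control replicate 1, 2 or 3 or strain replicate 2 (limma adjusted p = 0.080, 0.063, 0.077 and 0.061). Rarb, itself a classical retinoic acid target, was below the filter, with 0.134 FPKM as its highest value. Rara held 22.5% to 25.3% of the summed level of the group in controls and 27.8% to 31.4% under strain.

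The peroxisome proliferator-activated receptors (PPARs), sensors of fatty acids, were represented almost entirely by Ppard. It was at 15.5, 12.4 and 12.4 FPKM in controls and at 7.13, 6.09 and 7.003 FPKM under strain, a fall of 1.995-fold in the mean without overlap (log2 fold change -0.90 ± 0.11 SE, limma adjusted p = 0.00050). Ppard made up 96.0% to 96.7% of the summed PPAR level in controls and 92.5% to 94.8% under strain. Ppara, which drives fatty acid oxidation in liver, was below the filter, with 0.396 ± 0.004 FPKM in the control group and 0.256 ± 0.066 FPKM in the strain group (SD, n = 3). Pparg, the regulator of fat cell formation, was at 0.105 ± 0.031 and 0.197 ± 0.018 FPKM.

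REV-ERB receptors fell. Nr1d2 was at 14.6, 12.96 and 11.5 FPKM in controls and at 6.92, 7.01 and 5.42 FPKM under strain. The lowest control was above the highest strain library, with a log2 fold change of -0.91 ± 0.12 SE (limma adjusted p = 0.00073). Nr1d1 was at 20.2, 18.6 and 14.3 FPKM in controls and at 9.86, 10.4 and 13 FPKM under strain. The lowest control, replicate 3, and the highest strain library, replicate 3, lay close together, and the log2 fold change was -0.62 ± 0.14 SE (limma adjusted p = 0.010). The summed REV-ERB level went from 30.7 ± 4.56 to 17.6 ± 0.82 FPKM (SD, n = 3), and the share of Nr1d1 in it overlapped between the groups (55.4% to 59.0% and 58.8% to 70.6%).

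Among the RORs, Rora was at 4.64, 4.51 and 3.74 FPKM in controls and at 3.44, 3.20 and 2.66 FPKM under strain. It fell 1.39-fold without overlap (limma adjusted p = 0.036). This call was lost without control replicate 1 or 2 or strain replicate 2 or 3 (limma adjusted p = 0.13, 0.096, 0.072 and 0.079). Rorb, below the filter, was at 0.465, 0.727 and 0.476 FPKM in controls and at 0.263, 0.195 and 0.101 FPKM under strain. In a fit without a filter limma called it lower (adjusted p = 0.020).

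The liver X receptors (LXR) respond to oxysterols. Nr1h2, the LXR beta gene and the second most abundant receptor, was at 29.8, 28.6 and 29.0 FPKM in controls and at 26.8, 25.4 and 33.6 FPKM under strain. The groups overlapped, and the 95% interval of its log2 fold change ran from -0.29 to 0.22 (limma adjusted p = 0.83). Nr1h3, the LXR alpha gene, was at 1.89, 2.47 and 2.28 FPKM in controls and at 3.09, 2.98 and 3.05 FPKM under strain. It rose 1.37-fold (limma adjusted p = 0.034), a call lost without control replicate 1 or 3 or strain replicate 1, 2 or 3 (limma adjusted p = 0.13, 0.070, 0.086, 0.078 and 0.057). Nr1h3 overlaps Acp2 on the opposite strand, and Acp2, a lysosomal phosphatase gene, rose from 14.95 ± 1.58 to 19.8 ± 1.76 FPKM (SD, n = 3; limma adjusted p = 0.022). The vitamin D receptor Vdr, below the filter, ranged from 0.159 to 0.770 FPKM in controls and from 0.630 to 1.22 FPKM under strain, with overlap.

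The shared RXR partners were not called. Rxra was at 12.1, 9.99 and 10.9 FPKM in controls and at 12.96, 10.6 and 10.9 FPKM under strain (95% interval of the log2 fold change -0.19 to 0.31). Rxrb was at 7.62, 8.08 and 8.0 FPKM in controls and at 7.66, 6.47 and 8.74 FPKM under strain (interval -0.31 to 0.20). Both sets of values were mixed between the groups. Rxrg was listed at 0 in all libraries but strain replicate 2 (0.0189 FPKM).

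Of the steroid receptors, Nr3c1 was the most abundant. It was at 18.3, 17.8 and 17.2 FPKM in controls and at 11.1, 10.5 and 8.48 FPKM under strain. The controls lay close together and above all strain libraries, and the mean fell 1.77-fold (log2 fold change -0.77 ± 0.11 SE, limma adjusted p = 0.00087). Nr3c2, its close relative that binds both mineralocorticoids and glucocorticoids, was at 1.02, 1.42 and 1.11 FPKM in controls and at 1.28, 1.04 and 1.28 FPKM under strain. Its interval ran from -0.24 to 0.27 on the log2 scale. Nr3c1 accounted for 92.6% to 94.7% of their summed level in controls and for 86.9% to 91.0% under strain.

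The progesterone receptor Pgr was at 0.592, 1.68 and 1.24 FPKM in controls and at 1.88, 2.81 and 1.998 FPKM under strain. Control replicate 2 was close to strain replicate 1, and the mean rose 1.91-fold (log2 fold change 0.60 ± 0.19 SE, limma adjusted p = 0.040). That call was lost without control replicate 1 or 3 or strain replicate 2 or 3 (limma adjusted p = 0.12, 0.071, 0.12 and 0.073), and the log2 fold change was 0.39 without control replicate 1. The estrogen receptor Esr1, whose activation induces Pgr in reproductive tissues, did not exceed 0.0144 FPKM, and Esr2 was above 0 only in control replicate 2.

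Orphan receptors of the NR4A group, Nr4a1, Nr4a2 and Nr4a3, are immediate-early genes whose proteins act without a known activating hormone. Nr4a1 was at 19.3, 25.6 and 17.0 FPKM in controls and at 29.5, 22.2 and 23.9 FPKM under strain. It was not called (limma adjusted p = 0.19), except without control replicate 2 (0.046). Nr4a2 was at 6.14, 8.36 and 6.15 FPKM in controls and at 6.80, 5.96 and 4.79 FPKM under strain, with overlap (adjusted p = 0.32). Nr4a3 was at 3.46, 4.91 and 2.65 FPKM in controls and at 2.52, 2.11 and 1.91 FPKM under strain, and fell 1.69-fold (limma adjusted p = 0.038). Without control replicate 1 or 2 or strain replicate 2 or 3 it was not called (limma adjusted p = 0.088, 0.095, 0.089 and 0.11), and its log2 fold change was -0.35 without control replicate 2. The summed NR4A level overlapped between the groups (25.8 to 38.9 and 30.3 to 38.9 FPKM), while the share of Nr4a1 in it was 65.8% to 66.8% in controls and 73.3% to 78.1% under strain.

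In the NR2F group, the COUP transcription factors, Nr2f1 was at 0.885, 0.716 and 0.692 FPKM in controls and at 1.597, 1.93 and 1.84 FPKM under strain. It rose without overlap (log2 fold change 0.66 ± 0.10 SE, limma adjusted p = 0.0016). With a pseudocount of 0.1 the log2 fold change was 1.13. Nr2f2 was at 2.24, 3.16 and 2.38 FPKM in controls and at 3.17, 3.19 and 3.59 FPKM under strain. Its groups nearly touched without overlapping, and it was not called (limma adjusted p = 0.11), except without control replicate 2 (0.034). Nr2f6, the most abundant of the group, was at 19.5, 21.6 and 27.3 FPKM in controls and at 23.8, 26.7 and 29.2 FPKM under strain (95% interval -0.08 to 0.52).

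The testicular receptors Nr2c1 and Nr2c2, which compete for AGGTCA repeats, were not called. Nr2c2 was at 10.6, 9.47 and 10.9 FPKM in controls and at 9.57 and 8.90 FPKM in strain replicates 1 and 2. Strain replicate 3 was low, at 4.48 FPKM, and the interval was the widest of the receptors not called (-0.95 to 0.07, limma adjusted p = 0.16). Nr2c1 ranged from 4.14 to 5.22 FPKM in controls and from 4.62 to 5.44 FPKM under strain. Esrra was at 28.8, 31.7 and 30.1 FPKM in controls and at 31.6, 28.4 and 38.8 FPKM under strain (interval -0.15 to 0.37), and the lowest value was a strain library.

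**Figure D3:**
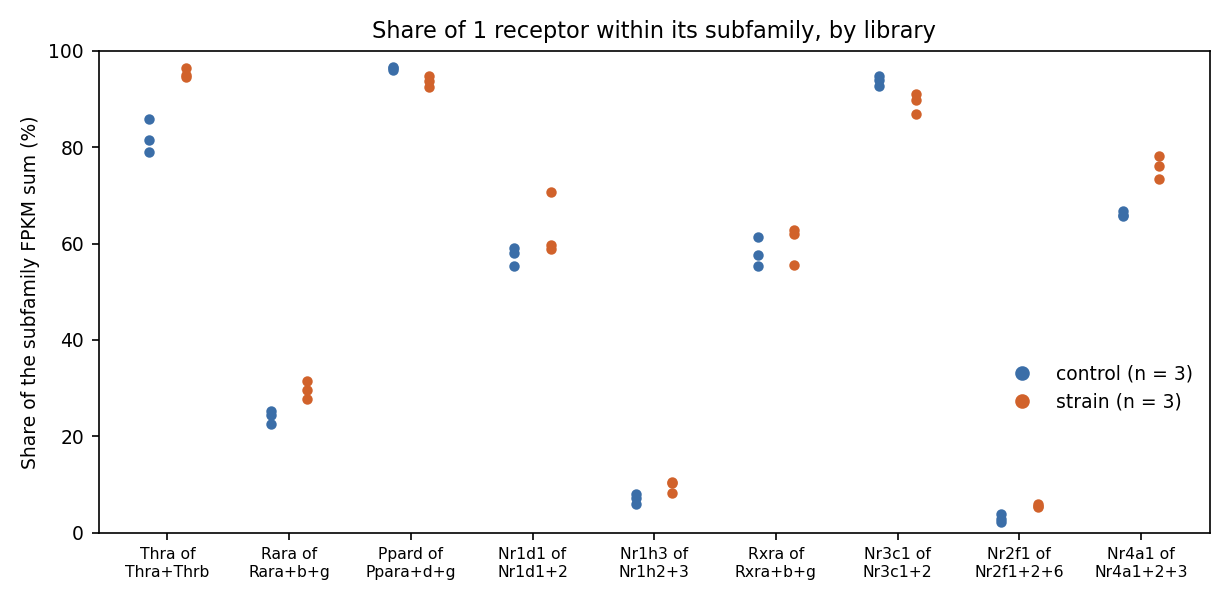
Share of 1 receptor in the summed FPKM of its subfamily (percent), 1 point per library, control blue and strain orange (n = 3 each). Thra went from between 79.0% and 85.8% to between 94.5% and 96.5%, and Nr4a1 from between 65.8% and 66.8% to between 73.3% and 78.1%, while the shares of Nr1d1 and Rxra overlapped.

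Of the 22 receptors under the filter, 9 were listed at 0 in all 6 libraries. They were Hnf4a and Hnf4g, the bile acid receptor Nr1h4, the xenobiotic receptors Nr1i2 and Nr1i3, Nr0b1, Nr0b2, the photoreceptor factor Nr2e3 and Esrrg. Several of these are known from liver, whose markers Alb and Ttr were also at 0. None of 15 constitutively expressed genes was at 0 in any library. Genes picked for steady expression cannot show why the receptors above were listed at 0. A further 6 were at 0 in some libraries (Esr2, Esrrb, Nr2e1, Nr5a1, Rarb and Rxrg), and 7 were above 0 in all (Esr1, Nr5a2, Nr6a1, Ppara, Pparg, Rorb and Vdr). Nr6a1, the germ cell nuclear factor, stayed between 0.657 and 0.860 FPKM. Without a filter, limma fitted 13 of the 22 and called 2, Rorb lower and Pparg higher (adjusted p = 0.044), with 23.3% of 16152 genes called in that fit.

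Cofactors, ligand-converting enzymes and target genes were taken from 16 lists made for the receptors above, with earlier results of these data known. They held 112 different tested genes, of which 20 rose and 33 fell (47.3% called, against 35.4% of all tested genes), with a median log2 fold change of -0.11. The counts by list below stand against 16.4% of all tested genes called higher and 19.0% called lower. Lists are short, and none was tested as a set. The lists share 13 genes, and Pgr and Rarb are listed as targets as well as receptors. Of the 53 calls, 30 held with each library left out in turn, as did 26 of the 44 called genes that the naming rule selects.

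Coactivators, which link a bound receptor to transcription, had 1 rise and 3 falls among 14. The histone acetyltransferases Crebbp and Ep300 fell 1.62-fold and 1.43-fold, Ncoa5 fell 1.38-fold, and the arginine methyltransferase Carm1 rose 1.32-fold. Leaving out single libraries ended all of these calls but that of Crebbp: Ncoa5's without control replicate 1 or 2 or strain replicate 1 or 2 (limma adjusted p = 0.053 to 0.086), Ep300's without any 1 control (0.054 to 0.056) and Carm1's without control replicate 1 (0.058). The p160 coactivators Ncoa1, Ncoa2 and Ncoa3 were not called.

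Corepressors had 1 rise and 2 falls among 10. Hr, the hairless corepressor of thyroid hormone receptors and itself a thyroid hormone target, fell from 10.3 ± 2.48 to 0.542 ± 0.031 FPKM (SD, n = 3; log2 fold change -2.84, limma adjusted p = 1.7e-05). Tbl1x, a subunit of the NCoR complex, rose 1.57-fold, and Nrip1 fell 1.58-fold, a call lost without control replicate 2 or 3 or strain replicate 1 or 3 (limma adjusted p = 0.056 to 0.093). The central corepressor Ncor1 (9.82 ± 0.29 and 8.79 ± 1.67 FPKM) was not called.

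Chaperones that hold steroid receptors in a ligand-ready state had 6 falls and 0 rises among 12, while 19.0% of all tested genes fell and 16.4% rose. The HSP90 cochaperone Ptges3 fell 1.32-fold to 66.7 ± 0.98 FPKM, Ppid 1.29-fold, Hsp90aa1 1.79-fold and St13 1.25-fold. Ptges3 kept its call with each library left out. The calls were lost for Ppid without control replicate 3 (limma adjusted p = 0.051), for Hsp90aa1 without strain replicate 3 (0.054) and for St13 without control replicate 1 or 3 or strain replicate 1 or 2 (0.062 to 0.098). Hsp90ab1, at 281 ± 19.97 and 266 ± 22.6 FPKM, and Fkbp5 were not called.

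Retinoid genes moved apart, with 1 rise and 2 falls among 6 tested genes of retinoid supply and clearance. Dhrs3, which reduces retinaldehyde and so limits retinoic acid, rose 3.35-fold to 17.6 ± 3.69 FPKM. Cyp26b1, which degrades retinoic acid, fell 3.71-fold from 6.93 ± 1.85 FPKM. The retinoic acid-forming Aldh1a2 and Aldh1a3 stayed below 0.1 FPKM on average in both groups, and Aldh1a1 was listed at 0. Of 9 retinoic acid receptor targets 4 were tested, of which 1 rose and 3 fell. Dhrs3 and Cyp26b1 are among them, and Tgm2, a transglutaminase, fell 4.04-fold.

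Genes of vitamin D and thyroid hormone conversion had 2 rises and 1 fall among 5. Dio2, the deiodinase that activates thyroid hormone, fell 1.96-fold (limma adjusted p = 0.017). The Dio2 call was lost without control replicate 1 or 3 or strain replicate 3 (limma adjusted p = 0.054 to 0.066). Among 4 tested thyroid hormone targets, Hr and the malic enzyme gene Me1 (1.63-fold) fell, and Klf9 and the inactivating deiodinase Dio3 were not called. Of 7 vitamin D receptor targets 3 were tested, of which Spp1 rose 1.66-fold, and Cyp24a1, the classical target, averaged 0.0106 FPKM in both groups.

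Steroid-converting enzymes had 2 rises and 1 fall among 7. Hsd11b1, which regenerates active glucocorticoid, fell 1.24-fold from 135 ± 12.9 FPKM, and Hsd17b4 rose 1.23-fold. Both calls were lost in 4 of the fits with 1 library left out: Hsd11b1 without control replicate 1 or 3 or strain replicate 1 or 2 (limma adjusted p = 0.066 to 0.17) and Hsd17b4 without any 1 control or strain replicate 1 (0.057 to 0.085). Star, the cholesterol carrier of steroid-producing cells, rose from 0.496 ± 0.384 to 2.96 ± 0.409 FPKM, while Cyp11a1 stayed below 0.2 FPKM on average and Cyp17a1 was listed at 0.

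Glucocorticoid receptor targets had 5 falls and 1 rise among 11. The NF-kB inhibitor gene Nfkbia fell 3.19-fold, Errfi1 3.57-fold, the phosphatase gene Dusp1 1.63-fold and the kinase gene Sgk1 2.52-fold, and the clock gene Per1 1.52-fold. The Per1 call was lost without control replicate 2 or strain replicate 2 (limma adjusted p = 0.057 and 0.062). Cebpd was the 1 rise, from 75.2 ± 26.3 to 184 ± 37.5 FPKM (SD, n = 3; limma adjusted p = 0.0049). Fkbp5 (2.46 ± 0.13 and 2.30 ± 0.23 FPKM) and Tsc22d3 (23.6 ± 6.14 and 17.4 ± 1.62 FPKM), which depend closely on glucocorticoid in many cell types, were not called. Per1 and Cebpd were named outside the rule, after their values were seen.

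Of 6 tested REV-ERB and ROR targets, 1 was called, Npas2, which fell 1.26-fold and lost its call with any 1 library left out (limma adjusted p = 0.053 to 0.13). Arntl, the classical target of both receptor groups, averaged 9.06 ± 1.88 FPKM in the control group and 8.80 ± 0.15 FPKM in the strain group and was not called. Genes of heme, the ligand of REV-ERB, had 3 rises and 0 falls among 12. Urod rose 1.37-fold, Fech 1.43-fold and Alad 1.53-fold. Each lost its call in some fits: Urod without control replicate 2 (limma adjusted p = 0.051), Fech without control replicate 2 or 3 or strain replicate 2 or 3 (0.051 to 0.077), and Alad without any 1 control or strain replicate 1 or 3 (0.058 to 0.10).

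All 3 tested genes of oxysterol conversion changed. Ch25h, which makes an oxysterol from cholesterol, fell 7.01-fold from 37.9 ± 2.23 FPKM, and Cyp7b1, which hydroxylates oxysterols further, fell 3.52-fold from 273 ± 17.7 FPKM. Cyp27a1, another oxysterol-forming enzyme, rose from 0.969 ± 0.121 to 2.09 ± 0.694 FPKM. Among 7 tested LXR targets 2 rose and 3 fell: the desaturase gene Scd fell 5.42-fold, Lpcat3 1.32-fold, Apoe rose 1.61-fold and Smpdl3a 1.42-fold. The last 3 lost their calls in some fits, Lpcat3 without control replicate 1 or 3 or strain replicate 1 or 2 (limma adjusted p = 0.074 to 0.094), Apoe without control replicate 2 or 3 or strain replicate 1 or 3 (0.061 to 0.10) and Smpdl3a without control replicate 1 or 2 or strain replicate 3 (0.054 to 0.099). The cholesterol exporter gene Abca1 was at 2.18 ± 0.22 and 1.64 ± 0.28 FPKM and was not called.

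PPAR targets had 3 rises and 5 falls among 11. The fatty acid-binding protein gene Fabp3 fell 2.92-fold from 45.4 ± 0.47 FPKM, the lipid droplet gene Plin2 2.28-fold and the mitochondrial fatty acid importer gene Cpt1a 2.04-fold. Angptl4, an inhibitor of lipoprotein lipase, rose 2.54-fold to 27.2 ± 1.54 FPKM (limma adjusted p = 3.7e-05). Acadm and Slc25a20 of fatty acid oxidation were not called. Among 5 tested estrogen receptor targets 3 rose and 0 fell: Igfbp4 rose 6.32-fold, the chemokine gene Cxcl12 2.44-fold, and Pgr as above.

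**Figure D4:**
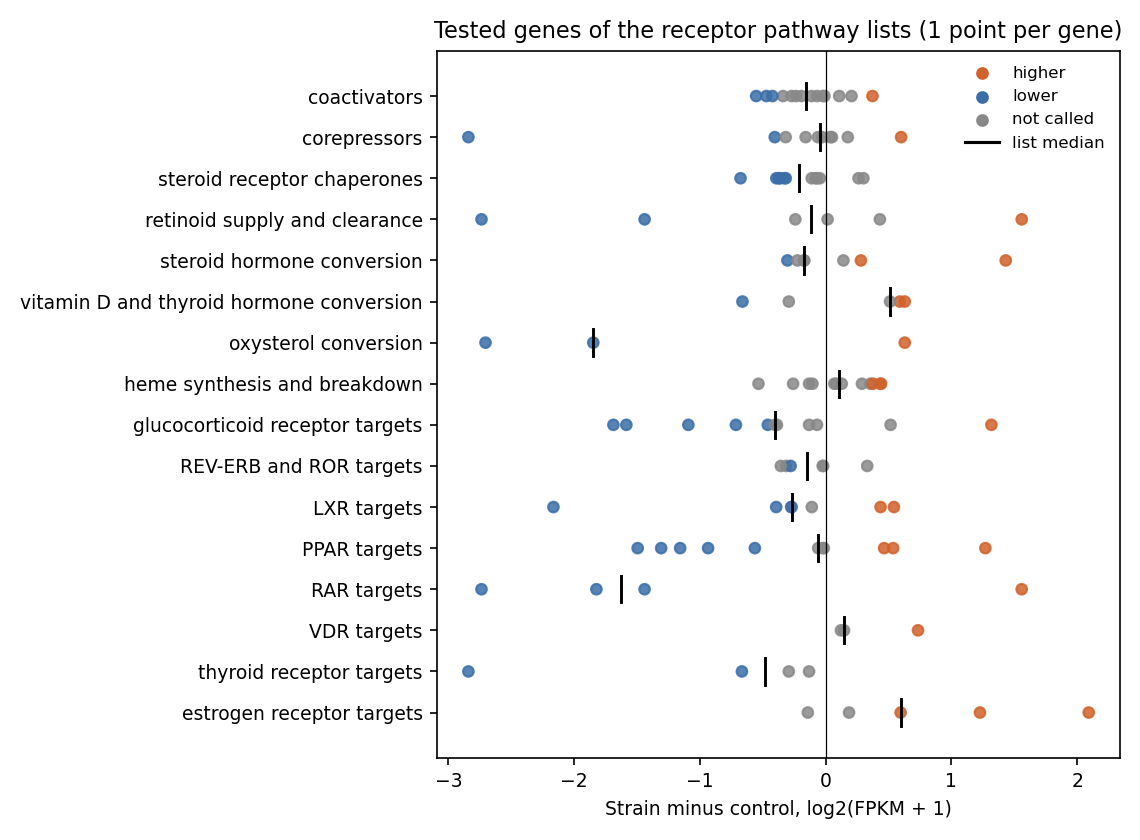
Difference between strain and control (log2 of FPKM + 1) for every tested gene of the 16 lists, 1 point per gene, with the median of each list as a black line; orange was called higher, blue lower and grey not called. Most lists hold points on both sides of 0, with Hr at -2.84 and Igfbp4 at 2.09 as the extremes.

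**Figure D5:**
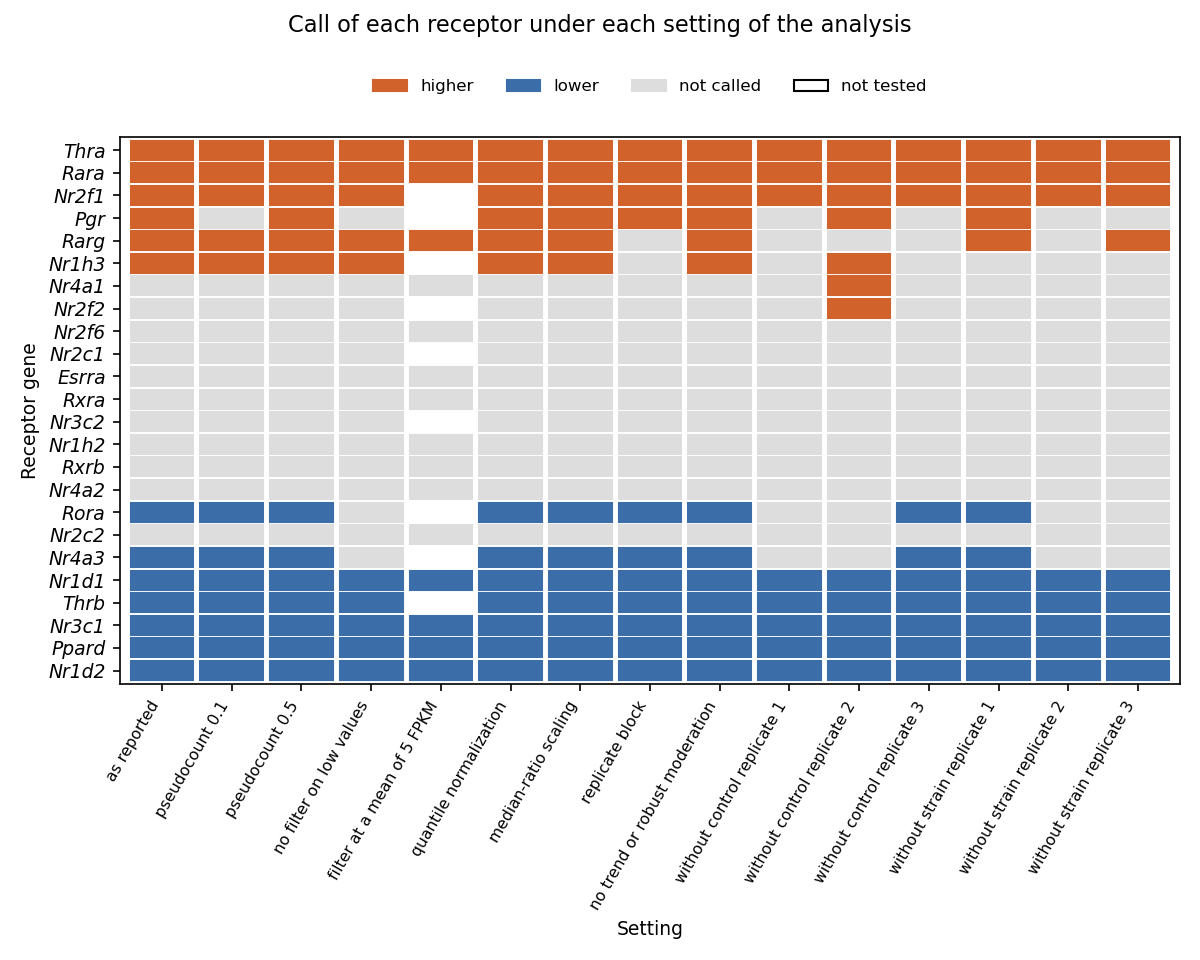
Call of each tested receptor (rows) as reported and under each of the 14 alternatives (columns); orange is higher, blue lower, grey not called and white not tested. The 8 receptors Thra, Rara, Nr2f1, Nr1d1, Thrb, Nr3c1, Ppard and Nr1d2 keep their colour wherever they were tested.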

How the data were processed

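RNA of 3 control and 3 strain libraries of rat nucleus pulposus cells was sequenced. The submitters' processing notes name DESeq, Cufflinks, Cuffdiff 2.2.1, HISAT2 2.0.4 and cutadapt 1.9.3, without role or order, and the only build named there is the human hg19, although the symbols are rat ones. File coordinates were therefore not used. The authors' deposited values were taken as FPKM, from the tools named and because they were not whole numbers and summed to 309497 to 348238 per library; library scaling is not given in the sources used here.

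Of 22601 rows per file, 27 whose symbol had become a calendar date and 1 damaged row were left out. Low values gave whole reads for no library pair: at most 12.7% of low genes shared the most frequent ratio within 0.01 log2 units. No pair of libraries shared equal values at 1 FPKM or more. The 10180 genes whose mean over the libraries was 1 FPKM or more were tested on log2(FPKM + 1), a pseudocount of 1. The test was limma (version 3.58.1, R 4.3.3, with trend and robust moderation), two-sided, with Benjamini-Hochberg adjusted p under 0.05. The code was tested on simulated data. An exact permutation test of 3 against 3 cannot go below 0.10 and was not used. Folds without log are ratios of group means, left out where a mean was under 1 FPKM.

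Same-numbered libraries are not said to share an animal or day, so no replicate block was used in the reported fit. Their deviations from the group means correlated at 0.033, 0.108 and -0.116. With 3 libraries per group these values cannot exclude a pairing, and a fit with the block is given below. The lists, tests and alternatives were chosen with earlier results of these data known, whereas the 46 receptors were given as a list of symbols. All receptors are accounted for; those under the filter are named with values where a group mean reached 0.3 FPKM, and others by choice. Of each list, up to 4 called genes with the smallest p were named, and further genes were chosen after their values were seen. Promoters are from RefSeq (GRCr8). Protein sequences were not used here. The values of some listed genes are not reported here, although counts and medians of their lists include them.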

Additional observations from a re-analysis of the deposited data

How the results depend on the processing

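The direction of the 13 called receptors was the same in all 14 alternatives that tested them, and 8 kept their call throughout. Scaling (quantile or median-ratio), a pseudocount of 0.5 and plain moderation gave 13 called receptors. In this order these fits called 3849, 3709, 3590 and 3579 of all 10180 tested genes (10172 with median-ratio scaling). A pseudocount of 0.1 gave 12 receptors and 3571 of 10180 genes. No filter gave 12 receptors as well. That fit also tested 13 of the 22 receptors under the filter, and it called 3768 of 16152 genes. With a filter at a mean of 5 FPKM, which tests fewer receptors, 7 were called (3 higher and 4 lower). Of all 6572 genes tested in that fit, 2488 were called (1071 higher and 1417 lower). With single libraries left out, the receptors called were 8 to 12 (3 to 7 higher and 5 to 7 lower), and all genes called were 2363 to 3572 (1060 to 1510 higher); the lowest counts of genes were without control replicate 1. With the replicate block 11 receptors were called (4 higher and 7 lower), and Nr1h3 and Rarg lost their calls (limma adjusted p = 0.065 and 0.05017). Over all genes, 3116 were called with that block. Not every library correlated best with its own number. Without a filter Nr4a3, Rora and Pgr were no longer called while Rorb and Pparg were; Pgr also lost its call at a pseudocount of 0.1 (limma adjusted p = 0.05004).

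Signs turned only for receptors that were not called, and with 1 exception only with a library left out. Over those fits the log2 fold change ran from -0.01058 (without strain replicate 3) to 0.2067 for Esrra, from -0.1538 to 0.04205 for Nr1h2 (positive without strain replicate 1, 0.005714, or 2), from -0.03893 to 0.08953 for Nr3c2 (negative without control replicate 1 or 3 or strain replicate 1 or 3), from -0.02354 to 0.1237 for Rxra (negative without control replicate 2, -0.0008746, or strain replicate 1) and from -0.1461 to 0.04566 for Rxrb (positive without strain replicate 2). After quantile normalization Nr1h2 was at 0.01996. The number of receptors at the threshold was 26 at 0.5 FPKM and 20 at 2 FPKM, against 24. Depth is unknown, so how far it limits the low receptors cannot be given.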
